A study of Mus musculus with 6 samples.

Results

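The 10 genes described here encode the Eph receptors and ephrins Epha1, Epha2, Epha4, Ephb2, Ephb3, Ephb4, Efna1, Efna5, Efnb1 and Efnb2, and were taken by symbol from a table of 31017 genes. All 10 were present in the table and all 10 passed the filter on low counts, which kept 12076 genes. RNA came from 4T1, a mouse mammary carcinoma cell line, grown in 3D collagen I gels after nucleofection with Cas9. The 3 control libraries are from cells given control guides, and the 3 ETV4 KO libraries are from cells given guides against Etv4, the gene of a PEA3-type ETS transcription factor. Both groups therefore carried Cas9, guides and the collagen culture in common. The ETV4 KO libraries share the code c39, which the sources used here do not explain, so it is not known whether they come from 1 clone. The labels do not say whether the 3 libraries of a group were separate cultures, and the p-values measure only the spread between these libraries, which may be technical.

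Eph receptors are receptor tyrosine kinases that bind ephrins on the surface of a neighbouring cell, so that signalling starts where cells touch. A-type ephrins are held in the membrane by a lipid anchor and B-type ephrins cross it, and A receptors bind mostly A ephrins and B receptors mostly B ephrins. Signals run into the receptor cell and, in reverse, into the ephrin cell, and are known for contact repulsion, tissue boundaries, blood vessel patterning and the branching of the mammary epithelium. Several members, Epha2 and Ephb4 among them, are widely studied in breast carcinoma.

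Receptors and ephrins did not change as a block in ETV4 KO cells. Epha4 and Epha1 were lower by 2.07-fold and 1.94-fold, while Efnb1, Efna5, Ephb3 and Ephb4 were higher by 1.31-fold to just over 1.7-fold. Epha2, the most abundant receptor, differed by 1.05-fold. Of the 10 genes 7 were called higher and 3 lower (edgeR, adjusted p under 0.05), where 71.1% of all tested genes were called, 35.0% higher and 36.0% lower. The values of the 2 groups did not overlap in any of the 10, against 72.7% of all tested genes. The median absolute log2 fold change was 0.459 over the 10 genes and 0.285 over all tested genes. A change of at least 1.5-fold was seen in 4 of the 10, against 21.7% of all genes, and of at least 2-fold in 1 of the 10, against 9.89%. The 10 genes were chosen with earlier results of these data known, which by itself can favour larger changes. In RNA from whole cultures, fewer cells that express a gene and less of its RNA per cell cannot be told apart.

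Total counts ran from 22355015 to 29042569 per library. The targeted gene Etv4 had 133.5, 134.7 and 133.3 CPM in controls and 87.4, 89.6 and 92.3 CPM in ETV4 KO, a log2 fold change of -0.58 (SE 0.036; adjusted p = 1.03e-14 by edgeR). Expressed genes in the same 10 Mb of chromosome 11 had a median of -0.465, and with that median as an offset, which takes it out of the fold change, Etv4 had -0.11 (edgeR adjusted p = 0.00741). CPM is a gene's count relative to the library size, scaled between libraries by TMM. The CPM values of the cell type markers in this paragraph are relative to the total counts, without TMM. A count of reads from the whole gene does not tell whether its protein was lost. Of 7 mammary epithelial markers 6 were present in all libraries, whereas Krt5 had at most 1 count in any library. Their summed level was 4860 to 4980 CPM in controls and 3360 to 3480 CPM in ETV4 KO, most of it from Krt8 and Krt18. The falls were not uniform. Epcam had 450.2 to 475.4 CPM in controls and 171.0 to 175.4 CPM in ETV4 KO, and Cdh1 530.9 to 568.7 CPM and 458.3 to 477.5 CPM. Krt19 went the other way, with 106.0 to 111.1 CPM in controls and 113.5 to 116.7 CPM in ETV4 KO, and what part these shifts have in the values below was not tested. Fibroblast markers summed to 10.3 to 12.1 CPM in controls and 12.8 to 14.4 CPM in ETV4 KO, nearly all from Pdgfra. Lum had 0 counts. Leukocyte markers summed to 9.24 to 11.2 CPM, nearly all from Cd68, with Adgre1 and Lyz2 at 0 counts, and endothelial markers to at most 0.879 CPM with Emcn at 0 counts.

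Of the 10 genes, the promoters of the pair with the largest falls and the pair with the largest rises before any regional offset are shown. The reason is that Etv4 encodes a factor of the ETS class, which binds DNA around a GGAA core. Each sequence is the 250 bases before the RefSeq start of the gene (GRCm38.p6, equal to mm10 in coordinates), written 5′ to 3′ on the gene's strand, with GGAA or its reverse complement TTCC in capitals. They lie at chr1:77515089-77515338 on the minus strand for Epha4, chr6:42373269-42373518 on the minus strand for Epha1, chr17:62881318-62881567 on the minus strand for Efna5, and chrX:99135811-99136060 on the plus strand for Efnb1.
Epha4: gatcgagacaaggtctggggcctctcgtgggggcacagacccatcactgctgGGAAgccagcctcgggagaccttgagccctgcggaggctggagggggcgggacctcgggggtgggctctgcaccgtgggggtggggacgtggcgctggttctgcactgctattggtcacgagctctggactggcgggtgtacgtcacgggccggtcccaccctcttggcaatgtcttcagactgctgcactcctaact
Epha1: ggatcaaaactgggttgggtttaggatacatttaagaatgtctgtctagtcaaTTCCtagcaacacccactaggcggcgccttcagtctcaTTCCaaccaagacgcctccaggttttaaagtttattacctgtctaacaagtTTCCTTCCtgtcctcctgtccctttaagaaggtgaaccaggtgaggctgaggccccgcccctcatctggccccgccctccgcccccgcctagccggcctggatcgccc
Efna5: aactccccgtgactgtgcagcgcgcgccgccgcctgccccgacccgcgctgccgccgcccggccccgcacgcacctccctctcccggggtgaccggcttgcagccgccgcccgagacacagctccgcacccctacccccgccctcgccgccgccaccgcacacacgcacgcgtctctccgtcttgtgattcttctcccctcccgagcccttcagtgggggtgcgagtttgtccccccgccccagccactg
Efnb1: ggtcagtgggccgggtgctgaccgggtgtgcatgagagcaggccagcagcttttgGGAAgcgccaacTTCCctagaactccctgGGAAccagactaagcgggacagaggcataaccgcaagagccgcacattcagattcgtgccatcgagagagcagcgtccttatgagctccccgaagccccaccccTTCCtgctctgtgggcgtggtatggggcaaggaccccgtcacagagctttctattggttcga
The core occurs 1 time in the Epha4 window, 4 times in that of Epha1, 4 times in that of Efnb1 and 0 times in that of Efna5. All 10 genes matched RefSeq and gave 11 windows, since Efna1 has a pair of starts. GGAA on either strand is in 10 of these 11 windows and in 93.4% of the 32851 windows of the same length in the table. It occurs 3 or more times in 6 of the 11 windows and in 54.7% of all windows. The longer forms AGGAAG and CGGAAG, which contain the core, are on either strand in 3 and 1 of the 11 windows and in 29.5% and 13.6% of all windows. A match of letters is a description and not a binding site.

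Among the A receptors, Epha4 fell the most. Epha4 (chromosome 1, 77367185 to 77515088, minus strand) encodes a receptor that binds ephrins of both types and is known for axon repulsion. It had 59.4, 54.4 and 55.2 CPM in the controls and 27.7, 26.5 and 27.3 CPM in ETV4 KO, on 1255 to 1473 and 653 to 792 counts per library. Each ETV4 KO library lay below each control library, and the log2 fold change was -1.05 (SE 0.0505, n = 3 per group; adjusted p = 2.08e-17 by edgeR).

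Epha1 (chromosome 6, 42358487 to 42373268, minus strand), an epithelial receptor that was the founding member of the family, followed closely. Its levels were 50.6, 50.1 and 46.7 CPM in controls and 26.3, 24.4 and 25.4 CPM in ETV4 KO. The groups were again apart, with a log2 fold change of -0.95 (SE 0.0523; adjusted p = 4.75e-16 by edgeR). The exons of Epha1 share 236 bases with Zyx on the opposite strand, and the sources used here do not say whether counting used the strand. Zyx, which encodes zyxin, had 191.3 CPM in controls and 197.2 CPM in ETV4 KO on average (edgeR adjusted p = 0.246). What part the shared bases have in the values of Epha1 was not tested.

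Epha2 (chromosome 4, 141301240 to 141329384, plus strand), a receptor studied for ligand-independent signalling in carcinoma, was the most abundant and, before any regional offset, differed the least. It had 776.7, 768.1 and 778.7 CPM in the controls and 793.5, 832.4 and 819.8 CPM in ETV4 KO. The lowest ETV4 KO library was just above the highest control. The log2 fold change was 0.07 (SE 0.0302; adjusted p = 0.0304 by edgeR). This call was lost with upper-quartile factors (adjusted p = 0.285), with library size alone (0.502), and without control replicate 2 (0.0779), control replicate 3 (0.0688), ETV4 KO replicate 2 (0.105) or ETV4 KO replicate 3 (0.108). With the median of its chromosomal neighbours as an offset the log2 fold change was larger, 0.21 (edgeR adjusted p = 7.02e-07).

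The 3 B receptors were higher in ETV4 KO. Ephb4 (chromosome 5, 137350109 to 137378669, plus strand), the receptor of ephrin-B2 in vessel formation, had 171.0, 162.0 and 168.0 CPM in controls and 219.7, 220.5 and 217.9 CPM in ETV4 KO. The ETV4 KO libraries were close to each other and all above the controls, with a log2 fold change of 0.39 (SE 0.0332; adjusted p = 9.8e-12 by edgeR). Its exons share 33 bases with Zan on the opposite strand, a gene that averaged 0.832 CPM in controls and 5.84 CPM in ETV4 KO.

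Ephb3 (chromosome 16, 21204755 to 21223305, plus strand), which positions epithelial cells in the intestinal crypt together with Ephb2, was the least abundant of the 6 listed receptors. It had 13.8, 12.9 and 13.3 CPM in controls and 19.9, 19.8 and 17.6 CPM in ETV4 KO, a log2 fold change of 0.52 (SE 0.0711; adjusted p = 1.37e-07 by edgeR). ETV4 KO replicate 3 was the lowest of its group and still above each control. Ephb2 (chromosome 4, 136647539 to 136835988, minus strand) had 58.8, 54.0 and 54.1 CPM in controls and 63.5, 61.3 and 63.8 CPM in ETV4 KO. Its groups were apart by less, with a log2 fold change of 0.18 (SE 0.0443; adjusted p = 0.00077 by edgeR).

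The A ephrins moved in opposite directions. Efna5 (chromosome 17, 62604184 to 62881317, minus strand), a ligand known for repelling axons in brain maps, had the largest rise of the 10 genes before any regional offset. It had 39.5, 42.8 and 40.0 CPM in the controls and 72.3, 68.4 and 69.1 CPM in ETV4 KO. All ETV4 KO libraries were far above all controls, with a log2 fold change of 0.78 (SE 0.0456; adjusted p = 2.42e-15 by edgeR). With the median of its chromosomal neighbours as an offset the value was 0.19, below those of Ephb3 (0.69), Efnb1 (0.50), Ephb2 (0.31), Efnb2 (0.21) and Epha2 (0.21). Efna1 (chromosome 3, 89271733 to 89281142, minus strand), the best known ligand of Epha2, had 84.9, 84.1 and 83.7 CPM in controls and 73.1, 69.0 and 67.1 CPM in ETV4 KO. Each ETV4 KO library was below each control, with a log2 fold change of -0.27 (SE 0.0405; adjusted p = 7.3e-07 by edgeR). This call was lost with the median of its chromosomal neighbours as an offset (-0.06, adjusted p = 0.223).

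Both B ephrins were higher. Efnb1 (chromosome X, 99136130 to 99148991, plus strand), whose product sets tissue boundaries in the developing skull and face, had 120.3, 117.2 and 117.6 CPM in controls and 188.9, 197.4 and 186.1 CPM in ETV4 KO. The groups lay well apart, with a log2 fold change of 0.69 (SE 0.0351; adjusted p = 8.17e-17 by edgeR). Efnb2 (chromosome 8, 8617434 to 8661242, minus strand), the partner of Ephb4, had 243.3, 250.0 and 244.9 CPM in controls and 269.6, 270.5 and 267.1 CPM in ETV4 KO. The shift of Efnb2 was small but larger than the spread of either group, with a log2 fold change of 0.13 (SE 0.0314; adjusted p = 0.000598 by edgeR).

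**Figure D1:**
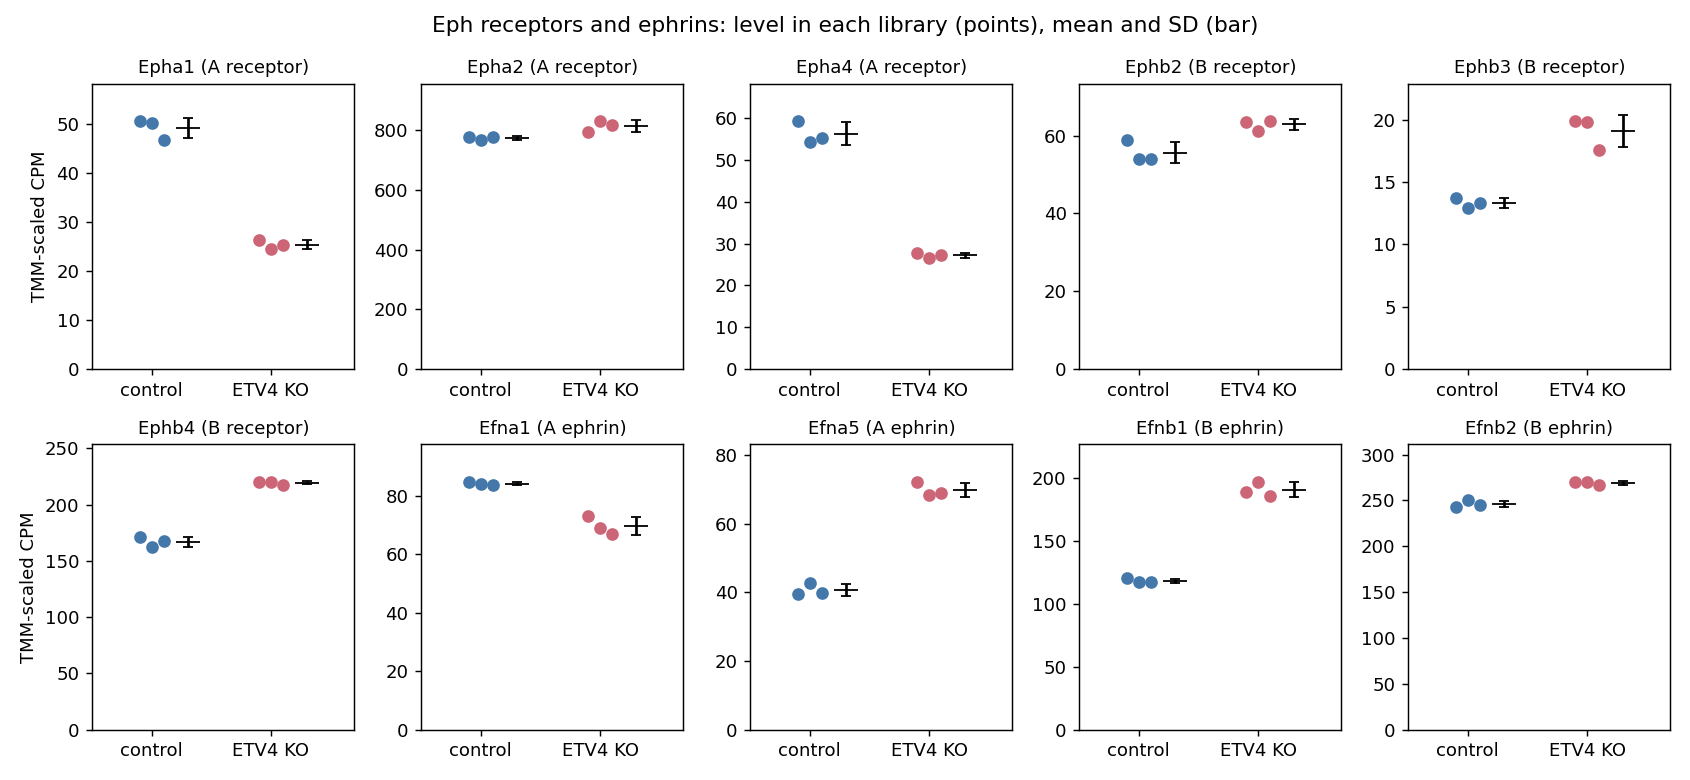
Level of each of the 10 genes in TMM-scaled CPM (vertical axis, from 0) in the 3 control and 3 ETV4 KO libraries (points), with the mean and SD beside them. Epha1 and Epha4 go from means of 49.1 and 56.3 CPM to 25.3 and 27.2 CPM, and Efna5 and Efnb1 rise from 40.7 and 118.4 CPM to 69.9 and 190.8 CPM, without overlap of the groups in any panel.

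Levels of different genes were compared per length, as TMM-scaled CPM per kilobase of annotated exons. On this scale Epha2 stood at 165.7 ± 1.20 in controls and 174.4 ± 4.25 in ETV4 KO (mean ± SD, n = 3 each). It made up 72.8% ± 0.482 of the 6 receptors in controls and 72.9% ± 0.616 in ETV4 KO. Behind it the share of Ephb4 was 15.8% ± 0.261 in controls and 19.8% ± 0.322 in ETV4 KO. The share of Epha1 was 5.22% to 5.67% in the control libraries and 2.55% to 2.85% in ETV4 KO, and that of Epha4 3.00% to 3.21% and 1.35% to 1.46%. These shares describe the 10 genes chosen and carry no test.

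Among the ephrins the order of levels changed. In the controls Efna1 was highest at 46.0 ± 0.346 CPM per kilobase, before Efnb2 at 35.9 ± 0.512 and Efnb1 at 34.3 ± 0.485, with Efna5 at 10.1 ± 0.440 (SD, n = 3 each). In ETV4 KO Efnb1 was highest at 55.3 ± 1.71, before Efnb2 at 39.3 ± 0.255 and Efna1 at 38.1 ± 1.65, with Efna5 at 17.3 ± 0.522 (SD, n = 3 each). The libraries of Efnb2 and Efna1 overlapped in ETV4 KO, and so did those of Efnb2 and the receptor Ephb4 in controls. The ratio of Efnb1 to Efnb2 per length was 0.956 ± 0.0256 in controls and 1.41 ± 0.0360 in ETV4 KO, and that of Efna1 to Efna5 was 4.56 ± 0.207 and 2.20 ± 0.0476. With the longest annotated transcript as the length, the ratio of Efnb1 to Efnb2 was 0.708 and 1.04, and in controls Efna1 and Efnb2 had nearly equal shares of the 4 ephrins, 34.6% and 34.4%.

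Summed per length over the listed genes only, A receptors had 185.2 ± 1.30 CPM per kilobase in controls and 184.2 ± 3.94 in ETV4 KO. A ephrins had 56.1 ± 0.474 and 55.4 ± 2.13. B receptors had 42.4 ± 1.22 and 55.2 ± 0.407, and B ephrins 70.2 ± 0.328 and 94.5 ± 1.94 (SD, n = 3 each). Left out were Ephb6 (mean 5.851 in controls, 3.519 in ETV4 KO), Efna4 (9.361 and 6.72), Epha8 (0.8678 and 1.83) and Efnb3 (0.883 and 0.9645). The other family genes left out had lower means than these. With TMM scaling the A classes overlapped between the groups and the B classes did not. Whether this holds for the sums under another scaling, or with the genes left out added to them, was not tested. The overlap of the A receptors may depend on the scaling, since Epha2 is most of their sum. Its log2 fold change was 0.07 with TMM and 0.02 when counts were scaled by library size without TMM. Within the A receptors, the mean of Epha1 went from 12.5 to 6.45 and that of Epha4 from 6.995 to 3.372, while that of Epha2 went from 165.7 to 174.4, and these differences nearly cancelled in the sum.

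**Figure D2:**
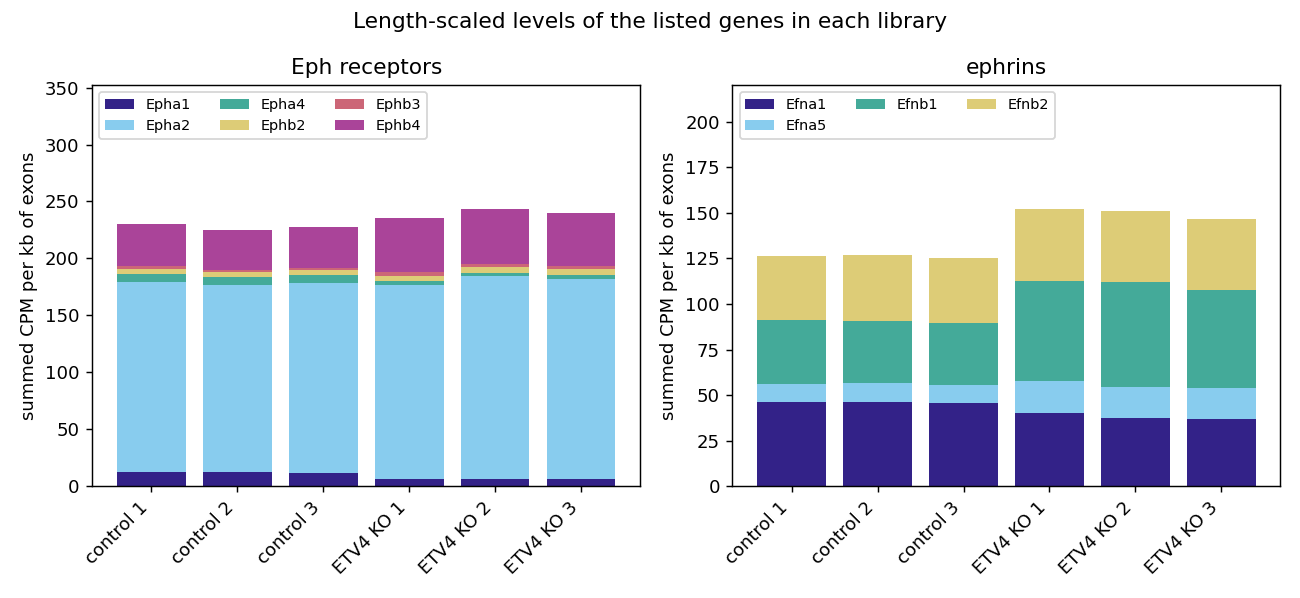
Stacked level of the 6 receptors (left) and 4 ephrins (right) in each library, in TMM-scaled CPM per kilobase of exons. Epha2 fills 72.2% to 73.3% of each receptor bar, and the ephrin bars are taller in the 3 ETV4 KO libraries, 146.7 to 151.9, than in the controls, 125.4 to 127.0.

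The rest of the mouse family comprised 12 genes, of which 6 were tested. Epha3, Epha5, Epha6, Epha7 and Ephb1 had 0 counts in all libraries, which allows up to 0.0411 CPM in controls and 0.0388 CPM in ETV4 KO at 3 counts over a group, for counting error only. Epha10 had 3 counts over the controls and 6 over ETV4 KO. Epha8, an A receptor best known from the nervous system, had 4.40, 3.91 and 3.96 CPM in controls and 9.40, 8.24 and 8.24 CPM in ETV4 KO. Its groups were apart, with a log2 fold change of 1.08 (SE 0.111; adjusted p = 6.1e-10 by edgeR). Ephb6, a receptor without kinase activity, had 20.7, 22.7 and 22.8 CPM in controls and 12.7, 13.9 and 13.2 CPM in ETV4 KO. It fell, with a log2 fold change of -0.74 (SE 0.0683; adjusted p = 7.7e-11 by edgeR), and so differed in direction from the 3 B receptors above.

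Of the remaining ephrins, Efna4, an A ligand, had 13.6, 15.6 and 15.7 CPM in controls and 10.9, 10.3 and 11.0 CPM in ETV4 KO. It fell without overlap, with a log2 fold change of -0.48 (SE 0.0789; adjusted p = 3.55e-06 by edgeR). Efnb3, a B ligand of the midline of the nervous system, had 2.60 to 2.99 CPM in controls and 2.59 to 3.56 CPM in ETV4 KO, and its log2 fold change of 0.11 (SE 0.159; adjusted p = 0.538 by edgeR) did not pass.

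Efna2 and Efna3 were near the limit of detection. Efna2 had counts of 5, 7 and 10 in controls and 24, 15 and 10 in ETV4 KO, and the groups overlapped in CPM. Efna3 had 9, 7 and 1 counts in controls and 16, 14 and 11 in ETV4 KO. Both passed the filter on low counts through their ETV4 KO libraries, which by itself favours a difference. Their log2 fold changes were 1.06 (SE 0.395; adjusted p = 0.0185 by edgeR) and 1.17 (SE 0.451; adjusted p = 0.0219 by edgeR). Both calls were lost with DESeq2 (adjusted p = 0.0708 and 0.0684). That of Efna2 was also lost without control replicate 1 (0.0749), control replicate 2 (0.0709) or ETV4 KO replicate 1 (0.139). That of Efna3 was lost without ETV4 KO replicate 1 (0.0535) or control replicate 3 (0.138), where its log2 fold change was 0.73.

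**Figure D3:**
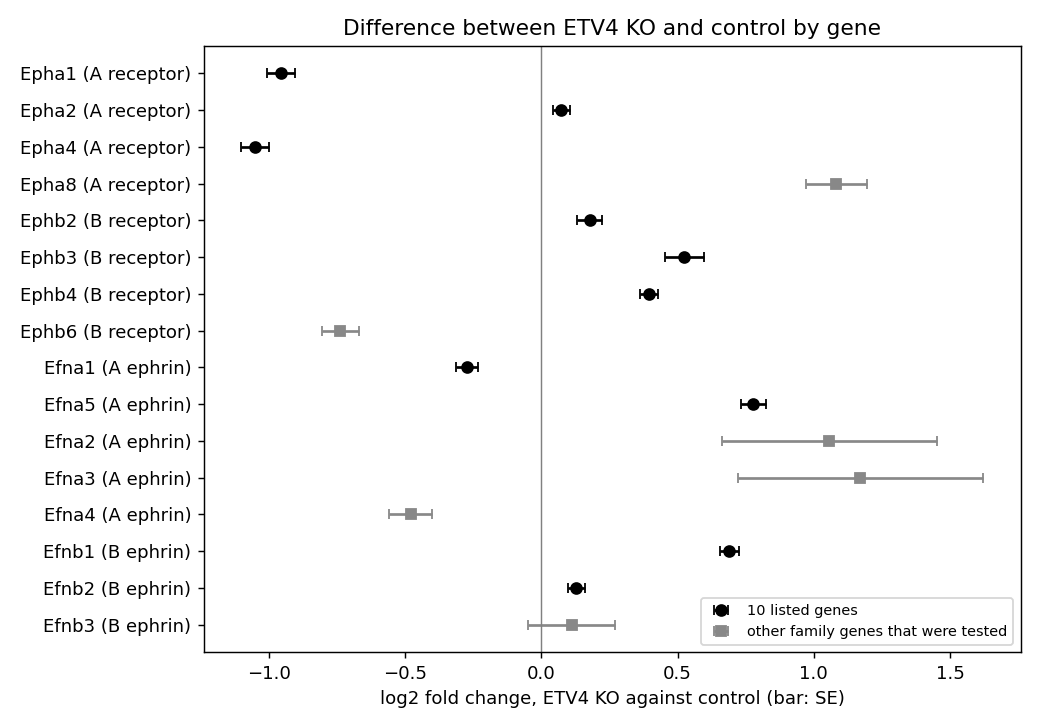
Log2 fold change of ETV4 KO against control (horizontal axis, bars are SE, n = 3 per group) for the 10 listed genes (black circles) and the 6 other tested family genes (grey squares). Each class of receptor and ligand but the B ephrins has members on both sides of 0, and the bars of Efna2, Efna3 and Efnb3 are the widest among the ephrins.

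Several of these genes lie close together. Efna1, Efna3 and Efna4 follow each other on chromosome 3, with gaps of 32.8 kb and 10.4 kb. The 2 that are well expressed, Efna1 and Efna4, both fell, while Efna3, on few counts, had a log2 fold change of 1.17. Ephb2 and Epha8 are 93.4 kb apart on chromosome 4 and both rose. Epha1 and Ephb6 are 738 kb apart on chromosome 6 and both fell. Each such pair shares its chromosomal surroundings, so its members are not separate observations of them.

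The groups also differed by chromosomal region, and each gene was therefore set beside the other expressed genes in its 10 Mb bin. The median log2 fold change of the neighbours of Epha4 was -0.102, and all 37 of them were above Epha4. Those of Epha1 had a median of -0.188, and all 23 were above it. Ephb3 was above 28 of its 29 neighbours (median -0.163), Efnb2 above 19 of 20 (median -0.0808) and Ephb2 above 90 of 102 (median -0.129). Epha2, at a log2 fold change of 0.07, was above 41 of 54 (median -0.133), and Efnb1 was above 14 of 16 (median 0.186).

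For 3 of the 10 genes the bin median was nearest, at a difference of 0.194 for Efna5, 0.163 for Ephb4 and -0.0565 for Efna1. Epha2 and Efnb2 came close behind, at 0.207 and 0.21. The median log2 fold change of the neighbours of Efna5 was 0.584, and 3 of 16 were above it. Ephb4 was above 55 of its 83 neighbours (median 0.231). Efna1 was below 41 of 67 (median -0.215). With the bin median entered as an offset, Efna5 had a log2 fold change of 0.19 (edgeR adjusted p = 0.000491) and Ephb4 one of 0.16 (edgeR adjusted p = 9.29e-05). Efnb3 then had 0.47 (edgeR adjusted p = 0.0104) and Efna4 -0.26. These p-values treat the median as exact and ignore how far the neighbours scatter around it. What part the regional differences have in the genes' values was not tested.

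**Figure D4:**
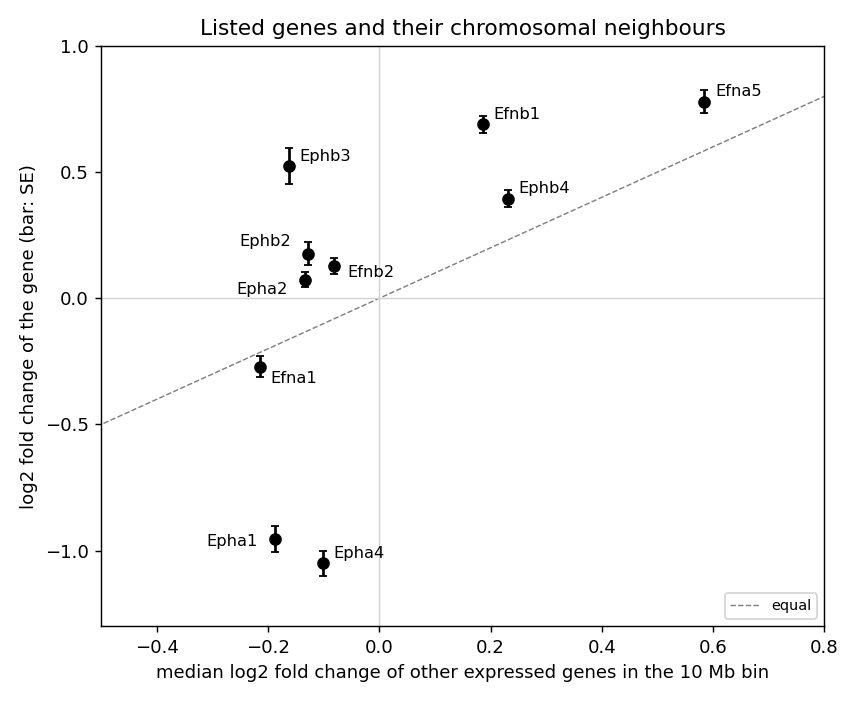
Log2 fold change of each of the 10 genes (vertical axis, bars are SE, n = 3 per group) against the median over its expressed neighbours in the 10 Mb bin (horizontal axis), with a dashed line where both are equal. Epha1 and Epha4 lie far below the line, Efnb1 and Ephb3 well above it, and Efna1 near it.

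Genes that act with Eph receptors and ephrins went both ways. Of 42 listed partners 40 were tested, and 15 were called higher, 17 lower and 8 not called, where 71.1% of all tested genes were called, 35.0% higher and 36.0% lower. The partners had a median log2 fold change of 0.0178 against -0.00384 for all tested genes. With the bin medians as an offset 12 were called higher and 16 lower, where 64.8% of all tested genes were called, 30.6% higher and 34.2% lower. Proteases that cut Eph receptors or ephrins were among them. Mmp14, a membrane metalloproteinase that cleaves Epha2, had 300.9, 288.2 and 297.7 CPM in controls and 466.3, 471.4 and 473.1 CPM in ETV4 KO, a log2 fold change of 0.67 (SE 0.0312; adjusted p = 9.35e-18 by edgeR). Adam10 and Adam17, sheddases of the ADAM family, had log2 fold changes of 0.29 and 0.35. The rhomboid protease Rhbdl2, which cleaves ephrin-B3, fell from a mean of 41.5 CPM to 24.8 CPM, with a log2 fold change of -0.74 (SE 0.0521; adjusted p = 1.52e-13 by edgeR).

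Of 11 exchange factors and GTPase activators 6 were called higher and 3 lower, against 35.0% and 36.0% of all tested genes. Kalrn, a GTPase exchange factor downstream of Ephb2 in neurons, had 5.00, 6.57 and 5.06 CPM in controls and 12.0, 13.2 and 12.8 CPM in ETV4 KO, a log2 fold change of 1.18 (SE 0.101; adjusted p = 1.46e-11 by edgeR). Arhgef15, an Eph-regulated exchange factor of vessels, rose by 0.48 on the log2 scale. Chn2, a chimaerin that inactivates Rac, had counts of 101, 124 and 89 in controls and of 1, 0 and 1 in ETV4 KO. The ratio of controls to ETV4 KO was 166.2, with a 95% Clopper-Pearson interval of 45.6 to 1378.4 for counting error only. Its relative Chn1, which acts behind Epha4 in motor circuits, had a log2 fold change of -0.27.

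Of 7 tested genes for phosphatases and receptor turnover 1 was called higher and 5 lower, against the same 35.0% and 36.0%. Ptpn13, a phosphatase that binds B ephrins and acts on their reverse signal, had 12.0, 11.0 and 10.9 CPM in controls and 0.908, 1.17 and 1.46 CPM in ETV4 KO, a log2 fold change of -3.27 (SE 0.142; adjusted p = 1.52e-18 by edgeR). The ubiquitin ligase gene Cblb had -0.59. Of 6 tested scaffolds 2 were called higher and 3 lower, against the same shares of all genes. Afdn, which encodes the junction protein afadin, rose from 284.7 to 419.4 CPM, a log2 fold change of 0.56 (SE 0.0311; adjusted p = 6.68e-16 by edgeR), although its neighbours on chromosome 17 had a median of 0.563 and the call was lost with that median as an offset (edgeR adjusted p = 0.918). Grb7, an adaptor that binds Ephb1 and lies on chromosome 11 with neighbours at a median of -0.367, fell from 66.1 to 23.7 CPM, a log2 fold change of -1.48 (SE 0.0515; adjusted p = 6.78e-21 by edgeR). Of 11 adaptors and kinases 2 were called higher and 5 lower, against 35.0% and 36.0% of all genes, and 0 differed by 1.5-fold or more, against 21.7%, with Yes1, a Src family kinase, at 0.40. With the bin median as an offset Adam17, Yes1 and Cblb had log2 fold changes of 0.21, 0.13 and -0.29, nearer to 0, while Arhgef15 and Chn1 had 0.84 and -0.50, further from it, and all 5 were called.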

How the data were processed

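The authors deposited 1 table of raw counts per gene symbol, without normalization; the unit was read from the values, which are whole numbers. Per the submitters' processing notes, featureCounts, STAR 2.7.9a, R 4.1.1 and FastQC 0.11.9 were used, with the builds mm10 and hg38; the step at which each entered is not stated there. The annotation, strand setting and treatment of multi-mapped reads are not given in the material used here. Columns were matched to samples by library name.

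Counts were analysed in R 4.3.3 with edgeR 4.0.16: filterByExpr (minimum count 10, minimum total 15), TMM, glmQLFit and glmQLFTest on the group, and Benjamini-Hochberg adjustment over 12076 genes. SEs were obtained from the log2 fold change and the root of F. Positions and exon lengths came from GENCODE M21, and promoters from RefSeq. Neighbours are genes with a log2 CPM above 3 in the same 10 Mb bin. The fit was tested on simulated counts. Alternatives used other scaling, filters, DESeq2 1.42.0, limma-voom 3.58.1, a replicate block, left-out libraries and the neighbour offset.

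The 10 genes, the partner list and the markers were chosen with earlier results of these data known. Named are all family genes, Etv4, and the 5 largest called rises and falls among partners with a mean of at least 20 counts in the higher group; other partners, Zyx and Zan were named after their values were seen. The promoter motifs were also chosen after seeing the data. A gene of the partner list is not reported here by name.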

Additional observations from a re-analysis of the deposited data

How the results depend on the processing

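Over the 15 alternatives the number of the 10 genes called higher was 6 or 7 and the number called lower 2 or 3, and 7821 to 8882 of all genes were called. All 10 genes kept their direction. Epha1, Epha4, Ephb2, Ephb3, Ephb4, Efna5, Efnb1 and Efnb2 kept their call in each alternative. Epha2 lost its call in 6 alternatives and Efna1 in 1, the neighbour offset. Efnb3, not called, ran from -0.003927 to 0.23 on the log2 scale when a library was left out, the lowest value being without ETV4 KO replicate 3. With the replicate block 7 genes were called higher and 3 lower, and 8882 genes in all. The numbers were not taken to pair the libraries: same-numbered libraries had correlations of their deviations from the group means of 0.214, 0.217 and -0.00947, and not every library correlated best with its own number. With the longest transcript as length the summed level per kilobase of the listed receptors was 268.2 in controls and 280.7 in ETV4 KO, in place of 227.6 and 239.4. For the listed ephrins it was 149.4 and 174.8, in place of 126.3 and 150.0. Efna2, Efna3 and Epha10 rest on few counts; at this depth a lower level of the genes at 0 counts than their stated limit could not be detected.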
